A study of Bos taurus with 2 samples.

Results

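Chromosome 2 of cattle, which carries the myostatin gene and the HOXD cluster, held 597 H3K4me3 regions in the longissimus dorsi (LD) of Angus steers. The members were all peaks listed on chromosome 2, 541 of the 12930 in the tender group and 481 of the 11535 in the tough group. Tender and tough peaks that overlapped by at least 1 bp were joined into 1 region, which left 597 of the 14264 regions of the series on this chromosome. Steers of about 12 months of one closed Angus herd were ranked by the Warner-Bratzler shear force of the cooked LD, the loin muscle. Those with the lowest and the highest force formed the groups. The 4 steers named tender had a force of 6.77 ± 0.56 kg and the 5 named tough had 19.93 ± 0.39 kg, with the kind of error not given. Chromatin of the steers of a group was pooled in equal parts before the immunoprecipitation, so each group is 1 library. There are no replicates, no value below has a spread between steers, and a difference between the lists compares these 2 libraries, not tender with tough muscle in general. LD tissue was used whole, and no marker gene could be checked in a list of peaks.

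H3K4me3 is histone H3 with 3 methyl groups on lysine 4. It sits on the nucleosomes next to the start sites of genes that are active or ready to be transcribed, usually as a sharp peak, and as wider blocks over some genes of development and cell identity. ChIP-Seq finds it by sequencing the DNA that an antibody against the mark brings down. Myostatin (MSTN), a secreted brake on muscle growth, is inactivated in several double-muscled cattle breeds. The HOXD genes are transcription factors that set position along the limb and body axis, and clusters of this kind are known for wide blocks of H3K4me3. The chromosome also carries TTN and NEB, which encode the giant sarcomere proteins titin and nebulin, DES, which encodes the muscle intermediate filament desmin, and COL3A1 and COL5A2, which encode collagen chains. RefSeq names 840 protein-coding genes on chromosome 2 of the ARS-UCD2.0 assembly, with MSTN beside PMS1 and the 9 HOXD genes in a row between MTX2 and EVX2. The peak lists state no build and do not use that assembly, so no peak is assigned to a gene here, and no sequence is printed.

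For each library the lists give the start, the end and a score of every peak. SICER, the peak caller, scans windows of 200 bp, joins windows that hold reads across gaps of up to 400 bp, and adds up for each peak how unlikely the reads of its windows are. Coordinates are given as listed, counted from 1. Reads per peak were worked back from the scores for 503 tender peaks (93.0%) and 467 tough peaks (97.1%) of chromosome 2, and were few, with a median of 22 in the tender list (quartiles 14 and 31) and 23 in the tough list (quartiles 16 and 34). A window held 0.157 reads on average in the library of the tender group and 0.182 in that of the tough group. The tough library was thus 1.165 times as deep, if both were scored with the same genome size. Intervals given below cover counting error only.

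Chromosome 2 was poor in H3K4me3 for its length. Its 597 regions (95% exact Poisson interval 550.1 to 646.9) lay between positions 1001 and 136782000, and they made up 4.29% of the regions but 5.46% of the length of the 29 autosomes, where each autosome was measured to its last peak. This is 4.36 regions per Mb, 0.786 times the mean of the autosomes, with 18 autosomes denser and 10 sparser (from 2.66 on chromosome 12 to 15.3 on chromosome 19). Relative to genes the chromosome stood in the middle. There were 71.1 regions per 100 protein-coding genes of ARS-UCD2.0, and 14 of the other 28 autosomes were higher and 14 lower, between 44.1 on chromosome 15 and 90.6 on chromosome 28. Regions covered 1661.4 kb, or 1.21% of the chromosome.

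Of the 597 regions, 409 (68.5%, 95% Wilson interval 64.7 to 72.1%) were found in both groups, 119 (19.9%) in the tender list only and 69 (11.6%) in the tough list only. On the other 28 autosomes together the shares were 69.0%, 19.7% and 11.3%. The median width of a region was 2600 bp (quartiles 1800 and 3400), and 39 regions (6.53%) reached 5 kb, compared with 8.07% over the 29 autosomes.

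The regions were far from evenly spread along the chromosome, and the last stretch held most of the crowding. Beyond 120 Mb, in 12.3% of the length, lay 243 regions (40.7%), which is 14.5 per Mb against 2.95 per Mb in the first 120 Mb. The boundary at 120 Mb was set after the map had been seen. In segments of 10 Mb the number was highest between 120 and 130 Mb, with 168 regions, and the 75 regions of the last 6.78 Mb gave 11.1 per Mb. The next fullest segments were those from 100 to 110 Mb with 54, from 0 to 10 Mb with 48 and from 20 to 30 Mb with 47 regions. The emptiest were those from 50 to 60 Mb with 10 and from 60 to 70 Mb with 12. Both lists gave this map. Beyond 120 Mb there were 212 tender and 181 tough peaks, and from 50 to 60 Mb there were 7 and 9.

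**Figure D1:**
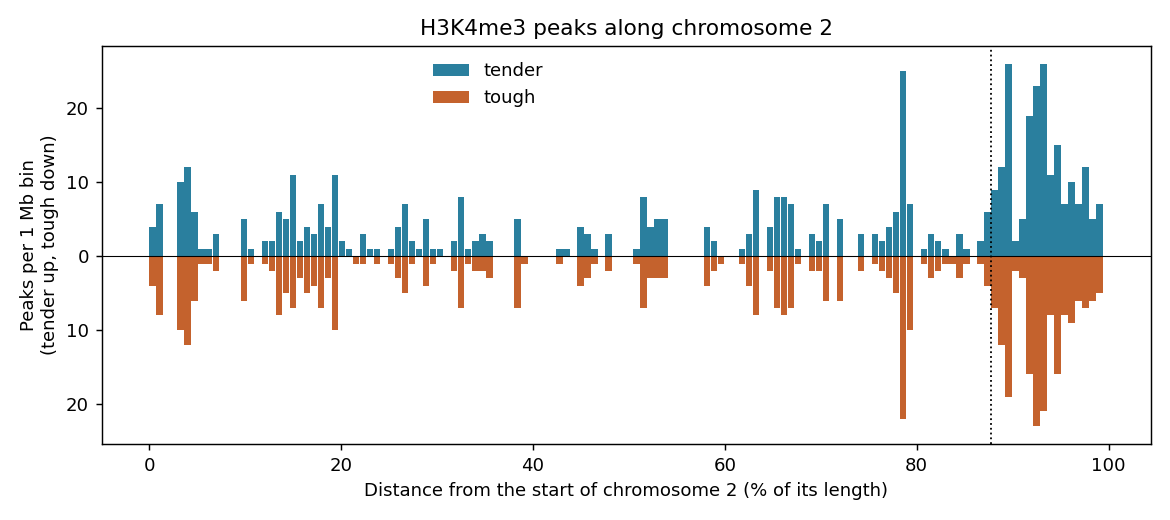
Number of tender peaks (bars up) and tough peaks (bars down) in each full 1 Mb bin of chromosome 2, with the distance from the start of the chromosome as a percent of its length of 136.8 Mb and a dotted line at 120 Mb. The bars of both groups are tallest to the right of the line and in the bin from 107 to 108 Mb (25 tender and 22 tough peaks), and are low or absent over long stretches before it.

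How concentrated the regions were among the autosomes depended on the measure. The segment from 120 to 130 Mb was 3.85 times as dense as the chromosome as a whole. On the other 28 autosomes the fullest full segment of 10 Mb was between 1.26 and 3.16 times as dense as its autosome, with a median of 1.79, so chromosome 2 ranked first of 29. This measure was chosen after the map had been seen. It is a description of 29 values with no test, and its highest possible value is set by the length of an autosome, so that short autosomes have less room. By the share of regions in the fullest 10% of the 1 Mb bins, chromosome 2 (42.0%) ranked 5 of 29, and chromosome 29 was highest with 56.9%. By the 10 Mb segments chromosome 2 stayed first with tender peaks alone, tough peaks alone, only peaks that reached double the lowest score of their list (a threshold of 2 times), segments of 5 Mb and segments shifted by 5 Mb, and was second in the other pair of lists described at the end. In bins of 1 Mb the variance of the number of regions was 7.56 times the mean. This was exceeded on 10 autosomes. Of the 11 autosomes with fewer than 5 regions per Mb chromosome 2 had the highest value, followed by chromosome 14 with 6.98. Chromosome 2 was also the densest of these 11, with 4.36 regions per Mb against 3.97 on chromosome 8. The cut at 5 per Mb thus puts it at the upper edge of this set.

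**Figure D2:**
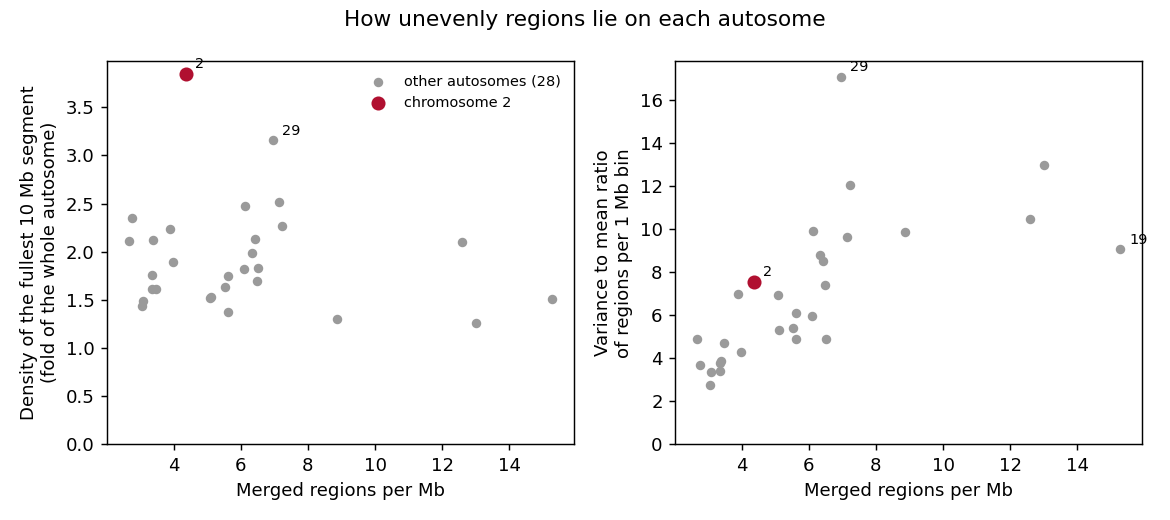
For each of the 29 autosomes, the merged regions per Mb (horizontal) are plotted against the density of the fullest 10 Mb segment as a fold of the whole autosome (left) and against the variance to mean ratio of regions per 1 Mb bin (right). Chromosome 2, in red, has few regions per Mb (4.36) but the highest fold in the left panel (3.85), above chromosome 29 (3.16), and 7.56 in the right panel.

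The fullest bins of 1 Mb showed where the crowding lay. The bins from 122 to 123 Mb and from 127 to 128 Mb held 28 regions each, and that from 126 to 127 Mb held 27. The bin from 107 to 108 Mb, outside the distal stretch, held 26, made of 25 tender and 22 tough peaks. Next came the bins from 125 to 126 Mb and from 129 to 130 Mb with 19 each. The median bin held 2 regions, and 35 of 136 full bins (25.7%) held 0.

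Long stretches without any region were the other face of the map. Neighbouring regions lay a median of 60.7 kb apart (quartiles 18.6 and 180.2 kb), and 28 gaps reached 1 Mb. More such gaps were found on 2 of the other autosomes and fewer on 26, but only 1 autosome is longer than chromosome 2. Together these gaps took up 62.5 Mb, 45.7% of the chromosome. This share was higher on 8 of the other autosomes, up to 58.8% on chromosome 12, and lower on 20. Of the 28 gaps 0 lay beyond 120 Mb, where the longest distance was 871.4 kb. The longest, of 5.83 Mb, separated a region that ended at 53015400 from the next, which started at 58845201. It was followed by gaps of 5.44 Mb after 73817000, 3.99 Mb after 65866800, 3.79 Mb after 48478400 and 3.61 Mb after 9871000. On 8 of the other autosomes the longest gap was longer still, up to 9.37 Mb on chromosome 11. A gap says that no peak was listed, which at this depth is not the same as no mark.

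Dense clusters were small. Taking regions up to 10 kb apart as neighbours, 19 clusters of at least 3 regions held 59 regions (9.88%), and 12 of the clusters lay beyond 120 Mb. On the other autosomes this share ranged from 1.24% to 26.3%, with 14 above and 14 below. With tender peaks alone the largest cluster had 5. No cluster of merged regions had more than 4. The largest cluster was larger than this on 17 of the other autosomes, equal on 7 and smaller on 4. One of the pair with 4 ran over 23.4 kb from 107018401 to 107041800. Its 4 tender peaks scored 59.3, 43.5, 37.7 and 103.5, and its 3 tough peaks 110.7, 43.4 and 83.9. The other ran over 25 kb from 127510001 to 127535000 and was made of weak peaks, with scores of 28.6, 32.5, 44.3 and 41.3 in the tender list (10 to 18 reads) and 32.4, 45.2 and 45.3 in the tough list (15 to 22 reads). Of the clusters of 3, the shortest ran over 12.4 kb from 134290201 to 134302600 and over 12.4 kb from 136461401 to 136473800, and the next over 15 kb from 125421201 to 125436200. In the last of these only the right-hand region was listed in both groups, with 34 tender and 33 tough reads.

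The widest block of H3K4me3 on the chromosome lay between 20 and 30 Mb. It was a single tough peak of 14400 bp from 20815001 to 20829400 with a score of 282.2, the highest tough score on chromosome 2. In the tender list the same stretch held a pair of peaks, one of 4000 bp from 20816601 to 20820600 (score 97.3, 39 reads) and one of 4800 bp from 20822801 to 20827600 (score 125.1, 49 reads). It stood beside another wide region, 600 bp to its left, where a tough peak of 6200 bp from 20808201 to 20814400 (score 168.3, 66 reads) lay over tender peaks of 3800 bp (score 83.0, 33 reads) and 3000 bp (score 167.2, 56 reads). A tender peak of 2000 bp from 20831001 to 20833000 (score 32.7, 14 reads) closed the row. Over these 26.6 kb the tender list thus gave 5 peaks and the tough list 2, and every tender peak but the last overlapped a tough one.

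The other wide regions differed in which list had the longer peak. From 124954201 to 124964800 the tough peak was 10600 bp long (score 115.7, 52 reads) and the tender peak inside it 2400 bp (score 90.7, 32 reads). From 5358201 to 5368200 a tough peak of 8400 bp (score 84.3) lay over tender peaks of 4000 and 5400 bp (scores 61.3 and 79.7). From 52273801 to 52283400 the reverse was seen, with a tender peak of 9000 bp (score 200.4) over tough peaks of 4400 and 4600 bp (scores 95.2 and 52.3). The tender peak was also the longer from 131473001 to 131482200, with 9200 bp (score 140.5, 59 reads) against 4000 bp (score 50.9, 24 reads) in the tough list.

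Beside that block, the highest-scoring regions were listed in both groups, with the higher score in the tender list. The highest score of the chromosome, 369.3, belonged to a tender peak of 2600 bp from 43583601 to 43586200, and the tough peak there had 3000 bp and a score of 270.1. This region stood alone, with 2.09 Mb without a region to its left and 390000 bp to its right. The region from 73760601 to 73764600 scored 314.1 in the tender and 208.0 in the tough list. At 5349601 to 5357400 the scores were 297.9 in the tender and 253.7 in the tough list, and the tough peak of 7800 bp also took in a small tender peak of 600 bp (score 26.3, 10 reads). This region lies 800 bp before the wide one at 5358201. The region of 1600 bp from 122189601 to 122191200 scored 246.6 in the tender and 143.0 in the tough list, with the same borders in both.

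Most peaks listed in one group only were weak. Without any overlap were 119 of 541 tender peaks on chromosome 2 (22.0%, 95% Wilson interval 18.7 to 25.7%), against 21.7% of all tender peaks on the 29 autosomes. In the tough list they were 69 of 481 (14.3%, interval 11.5 to 17.8%), against 14.0% over the autosomes. Both shares are within counting error of the background. Whether the tender group had the higher share depended on the rule. With equal numbers of peaks taken from both lists, 15.6% of tender and 16.4% of tough peaks were unshared. The order also turned when 50% of the peak's own length had to overlap, to 25.5% of tender and 26.6% of tough peaks. That rule asks more of longer peaks, and tough peaks were the longer ones. The tender share stayed higher with a reciprocal overlap of 50% (38.1% of tender and 30.4% of tough peaks). It also stayed higher among peaks with at least 2 times the lowest score of their list, set against the whole other list (4.36% and 1.07%). The unshared tender peaks had a median score of 29.2 and a median of 12 reads, where shared ones had 74.4 and, if counted, 25 reads. The unshared tough peaks had a median score of 30.6 and 14 reads, against 66.1 and 26 reads. By quartile of score, from the weakest up, 85, 27, 6 and 1 tender peaks of 136, 135, 135 and 135 were unshared. In the tough list they were 54, 13 and 2 of 121, 120 and 120 in the lower quartiles and 0 of 120 in the highest, which allows a share of up to 2.5%.

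The strongest of these unshared peaks rested on 20 to 39 reads. In the tender list the highest was a peak of 3800 bp from 107914601 to 107918400, with a score of 106.6 and 39 reads (95% exact Poisson interval 27.7 to 53.3), in the crowded bin from 107 to 108 Mb. It was followed by peaks from 136634601 to 136637000 (score 81.6, 32 reads), 38002401 to 38004800 (78.9, 28 reads), 37167201 to 37168600 (73.5, 24 reads) and 131818801 to 131821400 (66.1, 25 reads). In the tough list the highest was a peak of 3200 bp from 18057001 to 18060200, with a score of 76.2 and 32 reads (interval 21.9 to 45.2). Next was a peak of 4200 bp from 53011201 to 53015400 (61.9, 28 reads), which is the last one before the longest gap of the chromosome. The others lay from 1279801 to 1283400 (56.1, 24 reads), 89247401 to 89249600 (48.8, 20 reads) and 129017601 to 129019600 (46.8, 20 reads).

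Beyond 120 Mb fewer regions were shared and scores were lower, the tough scores mainly in the last 6.78 Mb. Both groups held 146 of the 243 regions beyond 120 Mb (60.1%, 95% Wilson interval 53.8 to 66.0%) and 263 of the 354 before it (74.3%, interval 69.5 to 78.6%). Neighbouring regions are not independent, and the boundary was set after the map had been seen. The intervals are thus no test of this difference. The median tender score was 51.4 beyond 120 Mb and 65.4 before it, and the median tough score 52.9 and 62.1. In the fullest segment, from 120 to 130 Mb, the medians were 54.4 (tender) and 61.7 (tough), and in the last 6.78 Mb 41.1 and 38.6. Of the distal peaks 29.7% of the tender and 18.8% of the tough ones were unshared, against 17.0% and 11.7% before 120 Mb. With strong peaks only, the order turned. Among peaks whose score was 2 or more times the lowest of their list, the shared regions made up 72.7% beyond and 70.3% before 120 Mb. On the other autosomes, the 28 segments of 10 Mb with at least 100 regions had 70.3% of their regions in both groups and the remaining segments 69.5%. Of those 28 segments, 5 had a lower share than the 62.5% between 120 and 130 Mb. The lower scores did not come with shorter peaks. The median tender width was 2000 bp in both stretches, and the median tough width was 2600 bp beyond and 2200 bp before 120 Mb.

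**Figure D3:**
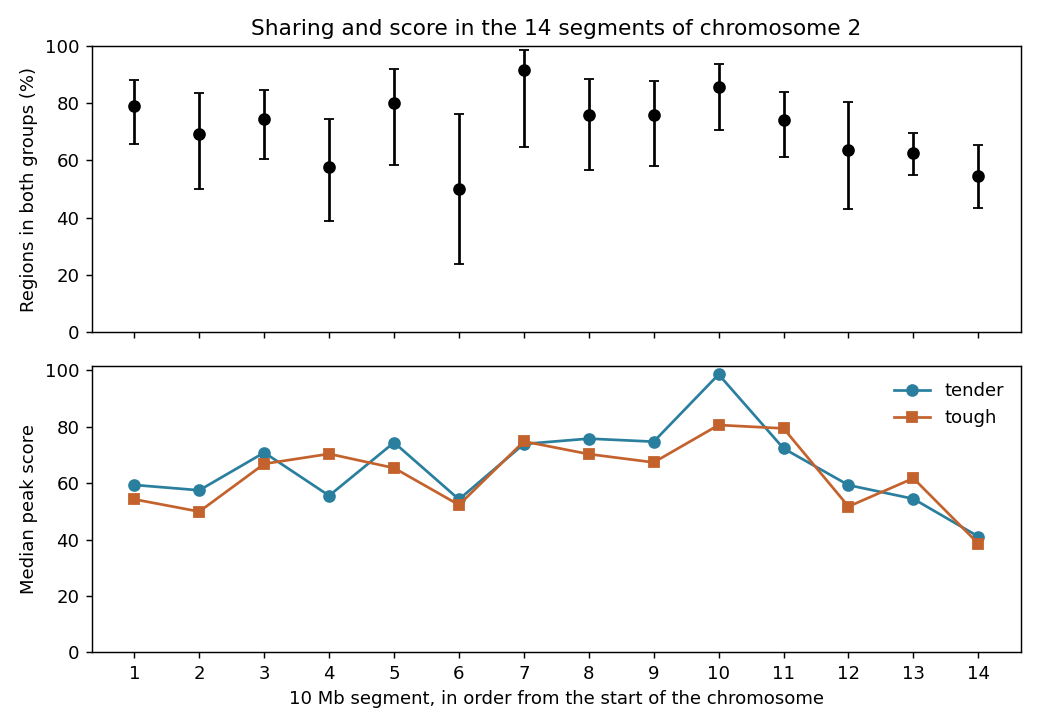
The upper panel shows the percent of regions found in both groups, with 95% Wilson intervals, and the lower panel the median score of tender (circles) and tough (squares) peaks in the segments of chromosome 2 in order, each of 10 Mb except the last of 6.78 Mb. The shares are 62.5% and 54.7% in the last 2 segments, the median scores are highest in segment 10 (98.6 tender, 80.6 tough) and lowest in the last (41.1 and 38.6), and the intervals of the thinly filled segments 6 and 7 are wide.

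Distance to the nearest neighbour gave no steady order. Of the 167 regions within 10 kb of another, 61.7% were in both groups (interval 54.1 to 68.7%). The share was 73.8% (68.5 to 78.4%) for the 301 regions with a neighbour 10 to 100 kb away and 65.1% (56.6 to 72.8%) for the 129 regions farther than 100 kb from any other.

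Tough peaks were the longer ones on chromosome 2, as on the other autosomes. The median width was 2400 bp (quartiles 1800 and 3200) in the tough and 2000 bp (quartiles 1400 and 2600) in the tender list. Among 393 pairs of peaks that overlapped each other and nothing else, the tough peak was longer in 243 (61.8%, 95% Wilson interval 56.9 to 66.5%), the tender peak in 116 (29.5%), and 34 had equal widths. Over all autosomal pairs the tough peak was longer in 59.7%. The tough peak was at least 2 times as long in 51 pairs (13.0%), and the background was 13.0%, while the tender peak was at least 2 times as long in 14 pairs (3.56%) with a background of 3.24%. A tough peak that overlapped several tender peaks was seen 13 times (3.16% of the shared tough peaks), and the opposite 3 times (0.711% of the shared tender peaks). Over all autosomes these shares were 2.68% and 1.07%, so both were near the background.

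The largest differences in width toward the tough group were of several kb. After the pair at 124954201, longer in the tough list by 8200 bp, came a pair in the distal stretch, where a tender peak of 1600 bp (13 reads) met a tough peak of 5600 bp from 133848801 to 133854400 (19 reads). In the bin from 108 to 109 Mb a tender peak of 600 bp (9 reads) met a tough peak of 4200 bp from 108196401 to 108200600 (17 reads). At 36816601 to 36822600 the tough peak had 6000 bp and 48 reads and the tender peak 2600 bp and 30 reads, and at 122720801 to 122727800 the tough peak had 7000 bp (score 147.3) and the tender peak 3600 bp (score 180.4). In these 5 pairs the tough score per window was lower than the tender one. They were picked for the longer tough peak, and this value is divided by the width, so the choice largely sets the order. The medians over all pairs of the chromosome, where most tough peaks were also longer, had the same order (5.77 tough and 8.42 tender). In the other direction the tender peak exceeded the tough one by 5200 bp at 131473001, 3200 bp at 126337201 to 126343000 (27 and 13 reads), 2800 bp at 72356401 to 72361200, 2600 bp at 127661401 to 127666200 (35 and 24 reads) and 2000 bp at 26600601 to 26603800 (27 and 24 reads). In these pairs, picked for the longer tender peak, the tender score per window was the lower one at 126337201, 127661401 and 26600601. It was the higher one at 131473001 and 72356401.

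Scores were close in most pairs. The tender score was the higher in 238 of 393 pairs (60.6%), and the median ratio of tender to tough scores was 1.13, or 0.17 on the log2 scale, against 0.19 over all autosomal pairs. A score at least 2 times higher in the tender list was found in 27 pairs (6.87%), and the background was 7.51%. A score at least 2 times higher in the tough list was found in 7 pairs (1.78%), and the background was 1.82%. Both shares had the background within their 95% Wilson intervals (4.76 to 9.81% and 0.865 to 3.63%). Scores are not scaled to depth, and once the ratios were divided by the median ratio of all autosomal pairs, 3.82% of pairs were 2 times higher in the tender and 4.07% in the tough list. This division brings the pairs close to balance by construction and says nothing of a direction. In the 355 pairs with reads for both peaks the median was 25 tender and 24 tough reads, each counted within the peak of its own list. Reads relative to the depth of the libraries were at least 2 times higher in the tender peak in 4.79% of these pairs and in the tough peak in 0.282%, against 5.87% and 0.780% of all counted autosomal pairs.

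**Figure D4:**
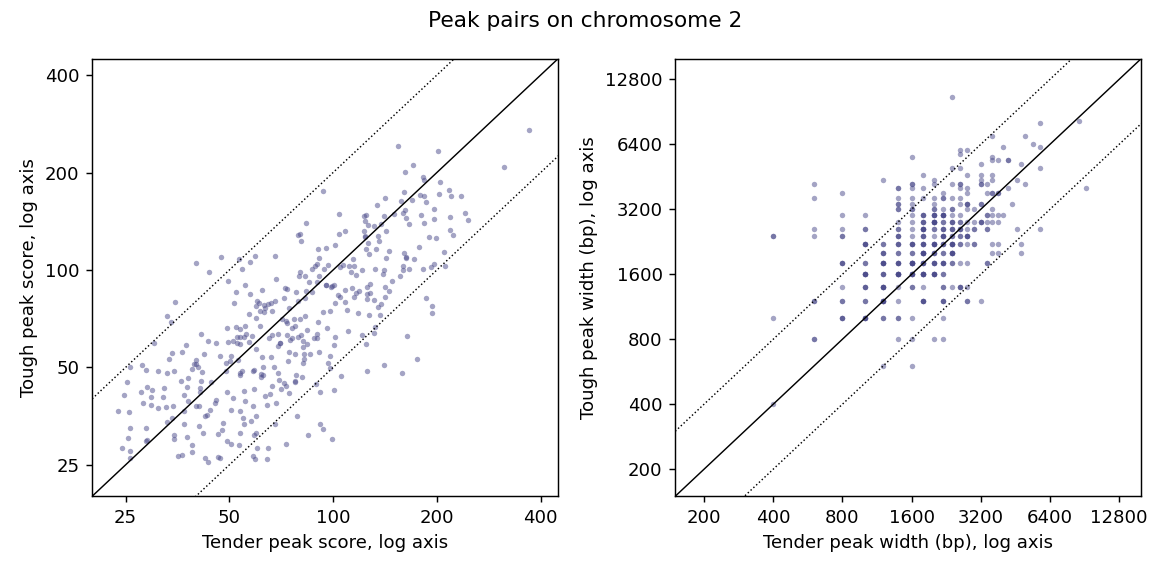
Scores (left) and widths in bp (right) of the 393 one to one pairs on chromosome 2, with the tender peak on the horizontal and the tough peak on the vertical log axis. The solid line marks equal values and the dotted lines a factor of 2, and more pairs lie above the solid line in the right panel (243 with a longer tough peak) than below it (116).

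Among the 245 pairs in which both peaks reached 2 times the lowest score of their list, the 5 largest differences in score were toward the tender group. These ratios of scores, and those toward the tough group below, were not divided by the median ratio of all autosomal pairs. That median was 1.14 toward the tender list, so the ratios of the 2 directions do not compare directly. The highest ratio of scores was 3.30, from 122888401 to 122890400, where the tender peak scored 174.6 and the tough peak 52.9. The reads were 52 and 21, which is 2.89 times more in the tender library relative to depth (95% exact interval 1.71 to 5.04). Next was the wide tender peak at 131473001, with a ratio of scores of 2.76 and of reads of 2.86 (interval 1.76 to 4.82). The others were the pairs at 72356401 to 72361200 (163.9 and 62.6), 4944801 to 4946400 (193.0 and 73.7) and 85103601 to 85106200 (194.1 and 77.2), with scores of the tender and the tough peak in brackets. For these the tender reads could not be counted.

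Toward the tough group the ratios of the top 5 among the same 245 pairs were smaller, and in the 4 of them with counted reads the interval took in a ratio of 1. The highest of these was 2.32, from 62567401 to 62568400, with scores of 109.97 in the tough and 47.4 in the tender peak and 35 against 17 reads (1.77 times more in the tough library relative to depth, 95% exact interval 0.964 to 3.36). At 122334001 to 122336200, with equal borders, the scores were 107.9 and 53.2 and the reads 39 and 20 (1.67 times, interval 0.952 to 3.03). The pairs at 86385201 to 86388400 (175.8 and 93.7), 878601 to 880400 (92.7 and 49.4) and 107018401 to 107022600 (110.7 and 59.3) followed, with the tough score first. Pairs with a weaker peak, outside the 245, reached slightly higher ratios. At 26740401 to 26741600 the tough peak scored 105.3 (34 reads) and the tender peak 39.9 (14 reads), and at 4380601 to 4382600 the tender peak scored 99.2 (31 reads) and the tough peak 29.98 (13 reads). All these pairs were picked as the extremes of many, so their intervals are descriptions of single pairs.

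The authors deposited a second pair of lists of the same libraries with other positions. In it chromosome X ends at 87.9 Mb, whereas in the lists used above it reaches 148.8 Mb, so the 2 pairs of lists do not share a build, and no file names one. The totals of the second lists are those of the paper, whose methods name bosTau4, so the lists used above are not the ones the paper counted. The second lists held 545 tender and 492 tough peaks on chromosome 2, joined into 613 regions over 140.8 Mb. The map was much the same in numbers, with 4.35 regions per Mb, 0.808 times the mean of the autosomes and again rank 19, 26.4% empty bins, a longest gap of 6.26 Mb and 67.2% of regions in both groups. Beyond 120 Mb lay 42.4% of its regions in 14.8% of its length. Its fullest segment, from 130 to 140 Mb, held 134 regions and was 3.08 times as dense as the chromosome.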

How the data were processed

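H3K4me3 ChIP-Seq peaks of 1 pooled tender and 1 pooled tough LD library were analysed. By the paper's methods, the authors aligned reads to bosTau4 with Maq, kept non-redundant, uniquely aligned reads with at most 1 mismatch, and called peaks with SICER (version 1.1 per the labels; windows of 200 bp, gaps of 400 bp, E-value 100). Values are the SICER score the authors deposited per peak, a sum over windows of minus the natural log of a Poisson probability. The methods name no control library. They describe the second lists, whose totals of 12452 tender and 11395 tough peaks are the paper's. The lists analysed here, with 12930 and 11535 peaks at other positions, are not the paper's, and their build and alignment are not given in the sources used here.

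Peaks of chromosomes 1 to 29 were merged at an overlap of 1 bp. Bins, gaps, clusters, widths and scores were computed for each autosome, each ending at its last peak. Reads were recovered from scores up to 180 within 1.5e-09. They are the reads within each list's own peak, so ratios of reads compare stretches that can differ in width. The mean reads per window needed for this was first taken from peaks 1 window long and then refined on peaks with low scores. With 1 library per group no test was run: shares have Wilson intervals, counts exact Poisson and ratios of reads exact binomial intervals, and calls are folds of 2.

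Named regions are the top 5 on chromosome 2 by score, width, unshared score, pair ratio, pair width difference, bin, gap and cluster. The members and lists were chosen with earlier results of these data known. Alternatives were a score threshold at 2 times the list's minimum, merging, overlap, bin and cluster rules, single groups, equal list sizes and reads for scores. The second lists, the 10 Mb segments, the 120 Mb boundary and depth-adjusted reads were added after seeing the data. Scripts (Python 3.11.15, numpy 2.4.6, pandas 2.3.3, scipy 1.17.1) were tested on simulated data. Gene assignment was left out because no genome of the build was at hand.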

Additional observations from a re-analysis of the deposited data

Results flagged for a closer look

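In the second pair of lists, which served above only as an alternative, the strongest peak of chromosome 2 lay at its very first base. It ran from 1 to 4800 in the tender list with a score of 881.6 and from 1 to 7400 in the tough list with a score of 1368.4, which made it the 6th highest autosomal peak of the tender and the 4th of the tough list. In the lists used above, the first peak ran from 1001 to 1400 in both groups and scored 28.6 in the tender and 48.9 in the tough list. Whether both come from the same sequence was not tested.

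In the second lists the widest tough peak of the chromosome was 21200 bp long, from 21436601 to 21457800, with a score of 465.0. It lay over 3 tender peaks of 7200, 3800 and 5000 bp with scores of 259.9, 98.6 and 127.8. The widest tough peak of the lists used above was 14400 bp long, from 20815001 to 20829400, and a gap of 600 bp separated it from the next tough peak. Positions of the 2 pairs of lists cannot be matched here.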

How the results depend on the processing

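With 1 library per group the spread between steers is unknown, and at a median of 22 to 23 reads per peak only large differences in a single pair are detectable. No paired analysis was possible because each group is a single pooled library. Of 104 alternative values for 21 results, 73 stayed within the 95% interval of the value reported (or within 1.5 times, for counts, gaps and ratios), and 31 moved beyond it. Requiring 2 times the lowest score left 363 regions, 18 in the fullest bin, a variance to mean ratio of 4.64 and 1.65% of regions in clusters. It raised the median tender width to 2200 bp and the median scores to 85.0 and 86.0. The pairs with a 2 times higher tender score fell to 3.54%, and the regions shared beyond 120 Mb rose to 72.7%. For unshared peaks the threshold was put on the group's own list only, and the other list was kept whole. This left 4.36% of tender peaks and 1.07% of tough peaks unshared. A reciprocal overlap of 50% left 38.1% of tender and 30.4% of tough peaks unshared, and 50% of the peak's own length 25.5% of tender and 26.6% of tough peaks. With equal numbers of peaks in both lists 15.6% of tender and 16.4% of tough peaks were unshared. The excess of the tender list thus did not hold under this setting or under the own-length rule, but held under the other rules just given. With equal numbers the median score of all tender peaks was 66.4. In pairs alone the median tender score was 74.7 and the median tough score 64.9. Bins of 5 Mb gave 0% empty bins, 105 regions in the fullest and a ratio of 23.5. Clusters took in 3.52%, 22.8% and 44.9% of regions with neighbours up to 5, 20 and 50 kb apart, the largest reaching 17 regions at 50 kb. They took in 6.44% with tough peaks alone and 12.7% in the second lists. Divided by the median ratio of all pairs, 3.82% of pairs were 2 times higher in the tender and 4.07% in the tough list, a balance that this division sets by construction. With reads for scores, in the 355 counted pairs only, 2.82% were 2 times higher in the tender list, and relative to depth 0.282% in the tough list.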
